A study of Homo sapiens with 6 samples.

Results

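Cytosolic ribosomal proteins are the proteins that, together with ribosomal RNA, build the large and the small subunit of the ribosome. The genes described here were chosen by symbol alone, as RPL and RPS genes of the usual numbering, with RPLP0, RPLP1, RPLP2, RPSA and RPL7L1. The choice found 82 genes of 27192 listed, 50 of the large subunit and 32 of the small subunit. RNA was measured in U87, an established human glioblastoma cell line. The siLINC00152 group (3 libraries) was transfected with a combination of 2 siRNAs against the long noncoding RNA LINC00152, and the siGL2 group (3 libraries) with a nonspecific control siRNA. Both groups were transfected a second time 24 hours after the first and harvested after another 24 hours. All libraries come from this single cell line, and the siRNAs were used as a mixture, so the effect of each siRNA alone was not measured. The labels do not say whether libraries A, B and C of a group came from separate cultures, so p-values measure spread between these samples alone, and that spread may be technical.

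Each ribosome holds a single copy of nearly every ribosomal protein, apart from the stalk proteins, and cells make the proteins in matched amounts. Most of their mRNAs begin with a run of pyrimidines, the 5′ terminal oligopyrimidine (TOP) tract, through which the kinase mTOR and the RNA-binding protein LARP1 control their translation and stability. Proteins made in excess of the other subunits are degraded. In the human genome these genes have many processed pseudogenes, whose sequences resemble the spliced mRNA closely.

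The libraries held between 41963120 and 46234763 counts. Levels are given as CPM, the count of a gene relative to the library's total, scaled by TMM, a method that matches libraries on the bulk of their genes, and a gene was said to have risen or fallen where edgeR's quasi-likelihood test gave an adjusted p under 0.05 over all 14078 genes tested. LINC00152 averaged 2.67 ± 0.108 CPM in the siLINC00152 libraries and 15.2 ± 1.18 CPM in the siGL2 libraries (SD, n = 3 each), a log2 fold change of −2.51 ± 0.09 (SE; adjusted p by edgeR = 4.55e-15). The summed level of 8 glioblastoma and astroglial markers was 8744 to 9021 CPM in the siLINC00152 libraries and 11640 to 12290 CPM in the siGL2 libraries. VIM (means of 6865.5 and 8976.9 CPM) and CD44 (2178.7 and 2696.5 CPM) carried nearly all of it, and both fell. OLIG2 averaged only 0.437 and 0.541 CPM in the siLINC00152 and siGL2 libraries, and GFAP, S100B and SOX2 had too few counts to be tested. Summed CPM of the 4 fibroblast markers was 663 to 757 in the siLINC00152 libraries and 426 to 476 in the siGL2 libraries; COL1A1 carried this sum and rose (log2 fold change 0.71), while LUM (−1.92) and PDGFRA (−0.59) fell. The summed level of the 4 neuronal markers was 50.3 to 55.4 CPM in the siLINC00152 libraries and 76.7 to 79.4 CPM in the siGL2 libraries. SNAP25 carried most of it and fell (log2 fold change −0.57), while RBFOX3 and STMN2 had too few counts to be tested. Endothelial markers (4) summed to 1.77 to 1.84 CPM in the siLINC00152 libraries and 1.97 to 2.66 CPM in the siGL2 libraries. Of these PECAM1 fell (log2 fold change −0.88) and VWF rose (1.10), both at low levels. Epithelial markers (4) summed to 3.66 to 5.1 CPM in the siLINC00152 libraries and 5.04 to 5.77 CPM in the siGL2 libraries. Leukocyte markers (4) summed to 0.229 to 0.256 CPM in the siLINC00152 libraries and 0.0712 to 0.212 CPM in the siGL2 libraries, with CD3E at 0 in every library. The part of these shifts in the values below was not tested.

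Of the 82 genes, 80 had enough counts to be tested, 48 of the large and 32 of the small subunit. The other 2, the tissue-restricted paralogues RPL3L and RPL10L, had 0 counts and 1 count over all 6 libraries. Among the 80 tested genes 41 fell and 0 rose in the siLINC00152 libraries, while 39 did not pass the threshold. By comparison, 32.2% of all tested genes fell and 32.2% rose, whereas 51.2% of the ribosomal protein genes fell. At an unadjusted p under 0.05 edgeR had 1 ribosomal protein gene on the higher side, RPL31, and DESeq2 called 40 lower and 0 higher. The falls were small: 38 of the 41 were less than 1.5-fold, and RPL17, RPL39L and RPS27A fell further.

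Fold changes of the ribosomal protein genes were small and mostly negative. The median log2 fold change was −0.13, with quartiles of −0.22 and −0.05, against a median of −0.001 and quartiles of −0.28 and 0.28 over all tested genes. The log2 fold change was negative for 72 genes and positive for 8, and it ranged from −1.34 (RPL17) to 0.16 (RPS24). These genes are also counted more deeply than most, with a median level of 331 CPM against 24.3 CPM over all tested genes, and 66 of them averaged over 100 CPM. Of those 66, 33 fell and 0 rose, while 32.3% of all 2364 genes above 100 CPM fell and 43.0% rose; this level was set after the values were seen. TMM compares each gene with the other mRNAs of its library, and in RNA pooled from many cells fewer cells of a type and less RNA per cell cannot be told apart.

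**Figure D1:**
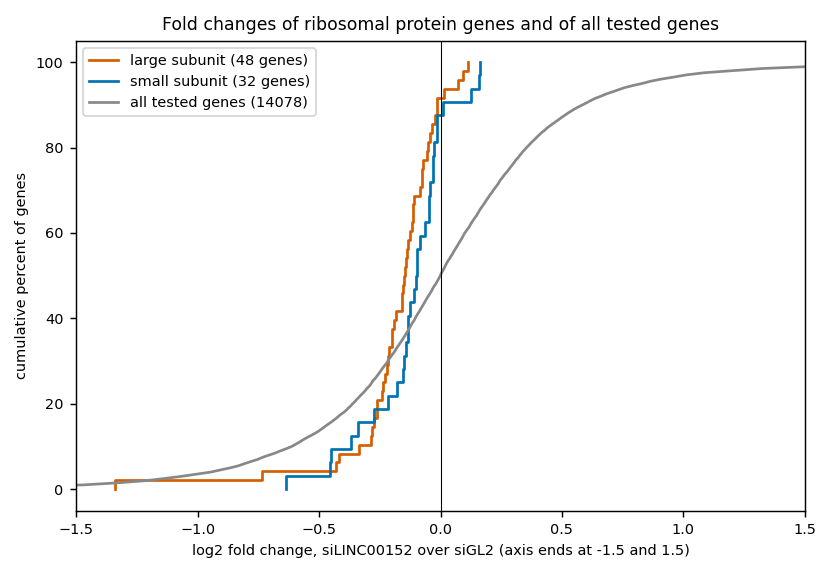
Cumulative percent of genes (vertical axis) at or below each log2 fold change, siLINC00152 over siGL2 (horizontal axis), for 48 large-subunit genes, 32 small-subunit genes and all 14078 tested genes. The curves of both subunits climb steeply to the left of 0, with medians of −0.15 and −0.10, while the curve of all tested genes crosses 0 near its middle.

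Set library by library, the ribosomal protein genes took 2.60%, 2.52% and 2.56% of all counts in siLINC00152 libraries A, B and C, and 2.73%, 3.04% and 3.10% in siGL2 libraries A, B and C. The groups did not overlap, and siGL2 library A lay nearer to the siLINC00152 libraries than to the other 2 siGL2 libraries. The mean was 2.56 ± 0.040% in the siLINC00152 libraries and 2.96 ± 0.196% in the siGL2 libraries (SD, n = 3 each), a difference of −0.40 percentage points. These shares are of unscaled counts. The TMM factors were 0.9745 to 0.979 in the siLINC00152 libraries and 1.022 to 1.025 in the siGL2 libraries, and scaling by them brings the groups closer. No p is given for sums over these genes.

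Library A of siGL2 stood apart, and not in this gene family alone. Over all genes with enough counts it differed from the other controls more than they did from each other. Chi-square per degree of freedom was 11.5 for siGL2 libraries A and B, 14.5 for A and C, and 3.03 for B and C. In the siLINC00152 group library A also differed most, by less: 6.11 for A and B, 5.51 for A and C, and 3.20 for B and C. Relative to the mean of the siGL2 libraries, the median log2 level of the 80 genes was −0.11, −0.15 and −0.12 in siLINC00152 libraries A, B and C, and −0.11, 0.04 and 0.07 in siGL2 libraries A, B and C. Among the 3 controls siGL2 library A had the lowest value for 75 of the 80 genes. The same held for 5539 of all 14078 tested genes and for 1006 of the 2364 genes above 100 CPM. Every siLINC00152 library was below every siGL2 library for 34 of the 80 genes (42.5%), against 33.8% of all tested genes and 32.9% of genes above 100 CPM, and 0 ribosomal protein genes had every siLINC00152 library above. The groups overlapped for the other 46. Without siGL2 library A 61 genes fell (76.2%, against 32.8% of all tested genes in that fit) and 0 rose, with a median log2 fold change of −0.19. Without siGL2 library C the median was −0.09, 30 genes fell (37.5%, against 30.1% of all tested genes) and 3 rose (RPL31, RPS24 and RPS27L). Of all tested genes 30.0% rose in that fit. Without siLINC00152 library B 30 genes fell as well (37.5%, against 29.2%), and without siLINC00152 library C RPL31 alone rose.

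**Figure D2:**
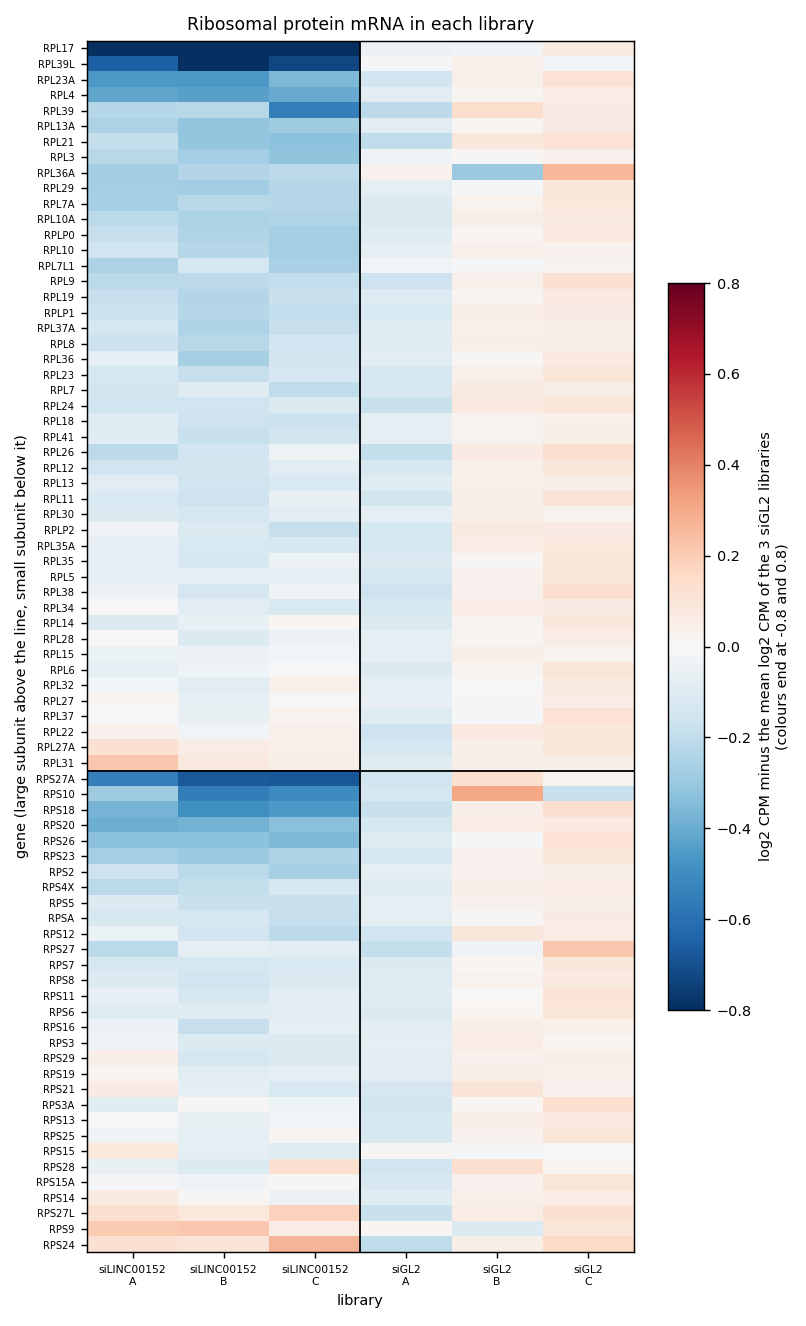
Level of 78 of the 80 tested genes (rows) in each library (columns) as log2 CPM minus the mean log2 CPM of the 3 siGL2 libraries, large subunit above the line and small subunit below it. Most rows are blue in all 3 siLINC00152 libraries and also pale blue in siGL2 library A, the lowest control for 75 of the 80 genes.

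Median fold changes were below 0 in both subunits. Of 48 large-subunit genes 28 fell (58.3%), with a median log2 fold change of −0.15. Of 32 small-subunit genes 13 fell (40.6%), with a median of −0.10. No gene of either subunit rose, while 32.2% of all tested genes fell and 32.2% rose, so the small subunit lay nearer to the share of falls over all genes. Large-subunit genes made up 62.5%, 62.6% and 62.8% of the family's counts in siLINC00152 libraries A, B and C, against 63.4%, 63.1% and 63.2% in siGL2 libraries A, B and C. The groups did not overlap, at a difference of −0.61 percentage points, and the difference between the subunits was not tested. A correction for gene length, computed within each library, brought the medians nearer to 0, at −0.09 in the large and −0.04 in the small subunit. It left 32 of the 80 genes lower and 3 higher, RPL27 and RPS25 among the latter. Of all tested genes 32.4% were lower and 32.6% higher in that fit.

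**Figure D3:**
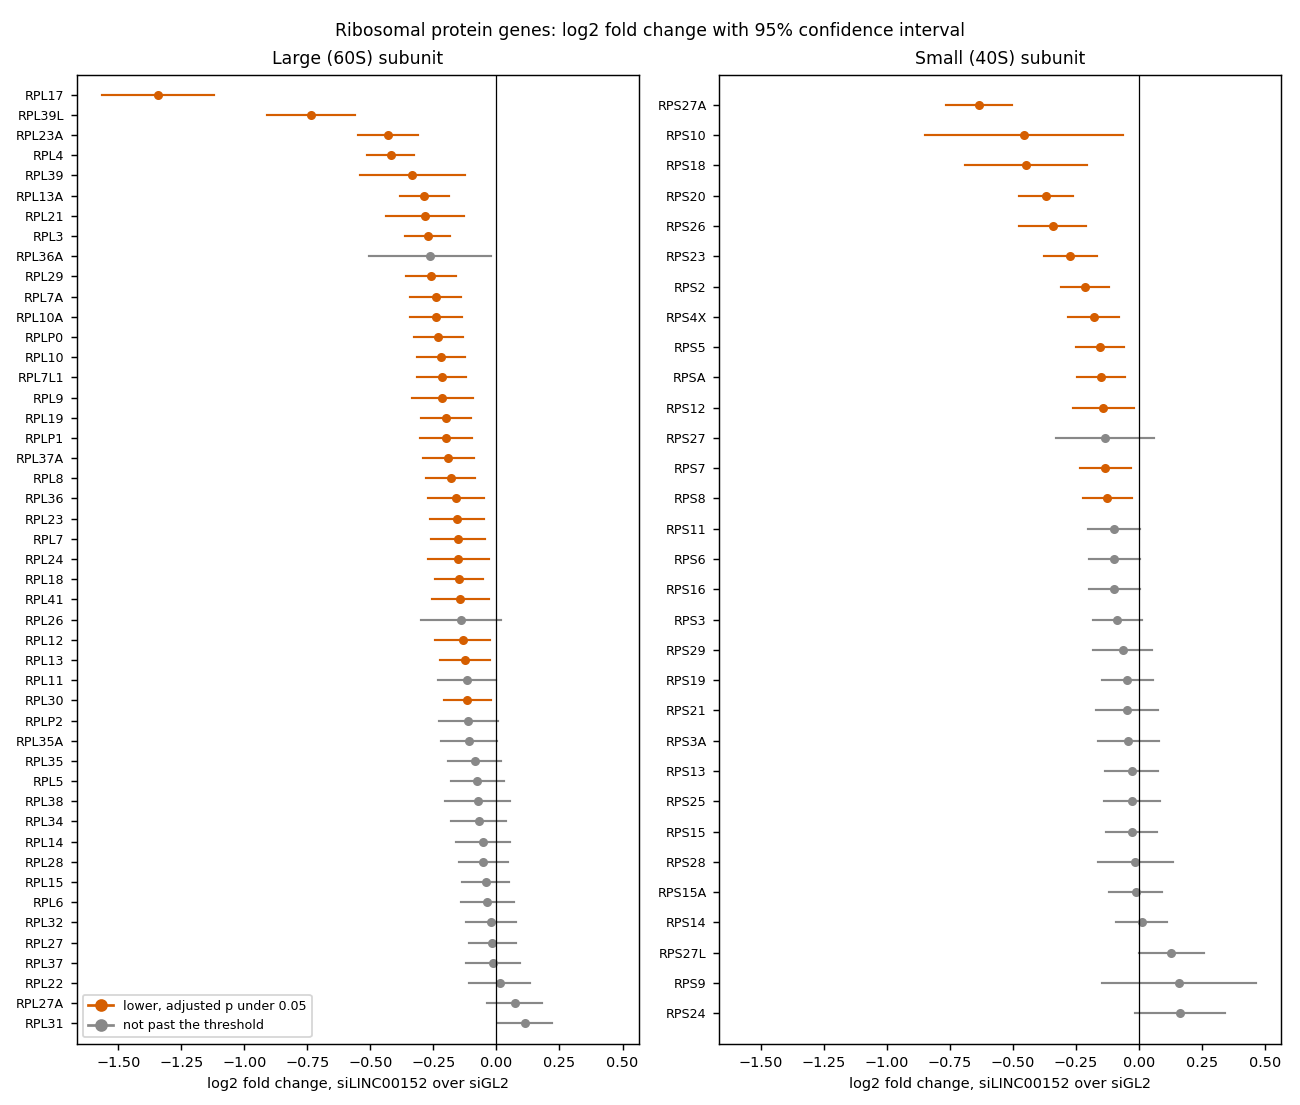
Log2 fold change of 78 of the 80 tested genes, siLINC00152 over siGL2 (horizontal axis), with its 95% confidence interval from the edgeR fit, large subunit left and small subunit right, coloured by whether the adjusted p was under 0.05. RPL17 (−1.34), RPL39L (−0.74) and RPS27A (−0.64) lie farthest below 0, and no gene passed the threshold above 0.

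Of the proteins that line or surround the exit tunnel, the passage through which the growing chain leaves the large subunit, RPL4, RPL17, RPL23A and RPL39 fell, while RPL26 (−0.14), RPL35 (−0.09) and RPL31 (0.11) did not pass on the log2 scale. RPL4, which reaches into the tunnel wall, is encoded at chr15:66498015-66524532 on the minus strand (GRCh38, GENCODE 29). It had 790, 782 and 798 CPM in siLINC00152 libraries A, B and C, against 997, 1072 and 1101 CPM in siGL2 libraries A, B and C. All 3 siLINC00152 libraries lay below the lowest control, and the siLINC00152 mean was 74.8% of the siGL2 mean. The log2 fold change was −0.42 ± 0.04 (SE; adjusted p by edgeR = 6.52e-08). Its main coding transcript shares 14.3% of its 75-base stretches with other genes, mainly pseudogenes.

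RPL17, which forms the tunnel's narrowest point together with RPL4, is encoded at chr18:49488453-49492523 on the minus strand. Its level was low, at 2.24, 2.14 and 2.49 CPM in siLINC00152 libraries A, B and C and 5.62, 5.69 and 6.11 CPM in siGL2 libraries A, B and C. The groups lay far apart, at a log2 fold change of −1.34 ± 0.11 (SE; adjusted p by edgeR = 7.32e-10). Of its 75-base stretches 86.7% also occur in other genes, among them the read-through gene RPL17-C18orf32. The count is therefore uncertain, since no source used here says how reads that match several genes were treated.

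RPL23A, at the tunnel mouth where factors meet the emerging chain, is encoded at chr17:28719393-28724359 on the plus strand. It had 158, 158 and 169 CPM in siLINC00152 libraries A, B and C, against 195, 223 and 235 CPM in siGL2 libraries A, B and C. The groups did not overlap, with a log2 fold change of −0.43 ± 0.06 (SE; adjusted p by edgeR = 1.93e-06), and 23.6% of its 75-base stretches occur elsewhere. RPL39, a very small protein of the tunnel wall, had 18.2, 18.3 and 14.6 CPM in siLINC00152 libraries A, B and C, and 18.5, 23.5 and 22.3 CPM in siGL2 libraries A, B and C. The lowest control, siGL2 library A, lay just above the highest siLINC00152 library. RPL39 fell by 0.33 ± 0.10 on the log2 scale (SE; adjusted p by edgeR = 0.00755). The tunnel proteins were grouped by location after their values were seen.

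Near the catalytic centre of the large subunit, RPL3 (chr22:39312882-39320389, minus strand) had 783, 756 and 730 CPM in siLINC00152 libraries A, B and C, against 887, 917 and 936 CPM in siGL2 libraries A, B and C. All 3 siLINC00152 libraries were lower than all 3 controls. Its log2 fold change was −0.27 ± 0.04 (SE; adjusted p by edgeR = 1.46e-05). RPL8, which also sits close to the site of peptide bond formation, averaged 836 ± 21.2 CPM in the siLINC00152 libraries and 948 ± 53.2 CPM in the siGL2 libraries (SD, n = 3 each), at a log2 fold change of −0.18 (adjusted p by edgeR = 0.00189). RPL10, needed for the subunits to join, fell with a log2 fold change of −0.22. The RPL10 value is uncertain, because 67.6% of its 75-base stretches occur in other genes on either strand. Of its exonic bases 52.7% overlap genes on the opposite strand, so these figures can cover the same bases. With the gene length correction RPL8 moved to −0.08 and was no longer called.

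Of the stalk, the arm that recruits elongation factors, RPLP0 and RPLP1 passed the threshold and RPLP2 did not. RPLP0, the base of the stalk and the most abundant of the 80 genes, had 1246, 1199 and 1179 CPM in siLINC00152 libraries A, B and C, against 1323, 1436 and 1490 CPM in siGL2 libraries A, B and C. The groups did not overlap, at a log2 fold change of −0.23 ± 0.05 (SE; adjusted p by edgeR = 0.000257). RPLP1 averaged 564 ± 11.9 CPM in the siLINC00152 libraries and 648 ± 46.1 CPM in the siGL2 libraries (SD, n = 3 each), and RPLP2 averaged 254 ± 13.9 CPM in the siLINC00152 libraries and 275 ± 22.7 CPM in the siGL2 libraries. The log2 fold changes were −0.20 for RPLP1 (adjusted p by edgeR = 0.00131) and −0.11 for RPLP2 (adjusted p by edgeR = 0.0846). RPLP2 was called lower without siGL2 library A (−0.18) or siLINC00152 library A (−0.15), and with the gene length correction it stood at 0.002.

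RPL13A, also known as a component of a complex that represses translation of inflammatory mRNAs, is encoded at chr19:49487554-49492308 on the plus strand. It had 304, 290 and 297 CPM in siLINC00152 libraries A, B and C, against 340, 367 and 379 CPM in siGL2 libraries A, B and C, without overlap. RPL29, a surface protein of the large subunit, had 197, 196 and 203 CPM in siLINC00152 libraries A, B and C, against 227, 235 and 253 CPM in siGL2 libraries A, B and C. Both genes were lower in every siLINC00152 library. Their log2 fold changes were −0.29 ± 0.05 for RPL13A (SE; adjusted p by edgeR = 1.93e-05) and −0.26 ± 0.05 for RPL29 (SE; adjusted p by edgeR = 6.04e-05).

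RPL5 and RPL11, which bind a small ribosomal RNA and, outside the ribosome, the p53 regulator MDM2, did not pass the threshold. RPL5 averaged 334 ± 1.21 CPM in the siLINC00152 libraries and 352 ± 28.5 CPM in the siGL2 libraries (SD, n = 3 each), a log2 fold change of −0.08 with a 95% interval of −0.18 to 0.03 (adjusted p by edgeR = 0.198). RPL11 averaged 575 ± 21.5 CPM in the siLINC00152 libraries and 624 ± 55.9 CPM in the siGL2 libraries (SD, n = 3 each), with a log2 fold change of −0.12 (adjusted p by edgeR = 0.0667). For both genes the libraries of the groups overlapped. Without siGL2 library A both were called lower, at −0.14 for RPL5 and −0.19 for RPL11, as they were by library size alone. RPL11 was also called by upper-quartile scaling (−0.14) and with no filter (−0.12). Without siGL2 library C RPL5 stood at −0.03 and RPL11 at −0.07, and with the gene length correction at −0.03 and −0.04, not called.

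In the small subunit the largest fall was that of RPS27A, made as a fusion with ubiquitin that is cut apart after translation, and encoded at chr2:55231903-55235853 on the plus strand. It had 144, 132 and 132 CPM in siLINC00152 libraries A, B and C, against 189, 231 and 215 CPM in siGL2 libraries A, B and C. The siLINC00152 mean was 64.4% of the siGL2 mean, with no overlap, and the log2 fold change was −0.64 ± 0.06 (SE; adjusted p by edgeR = 7.04e-08). Of its 75-base stretches 36.3% occur in other genes. FAU, a small-subunit protein fused to a ubiquitin-like part, averaged 220 ± 7.87 CPM in the siLINC00152 libraries and 238 ± 15.01 CPM in the siGL2 libraries (SD, n = 3 each), a log2 fold change of −0.11 (adjusted p by edgeR = 0.0486). FAU was not called without siGL2 library B (−0.09) or C (−0.09), without siLINC00152 library B (−0.09) or C (−0.11), or with DESeq2 (−0.11), and it stood at 0.006 with the gene length correction.

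RPS20, a protein of the small subunit's head, had 598, 603 and 620 CPM in siLINC00152 libraries A, B and C, against 710, 815 and 827 CPM in siGL2 libraries A, B and C. RPS23, at the decoding centre (chr5:82273358-82278577, minus strand), had 467, 458 and 474 CPM in siLINC00152 libraries A, B and C, against 515, 577 and 599 CPM in siGL2 libraries A, B and C. For both genes the siLINC00152 libraries lay close together below the lowest control. The log2 fold changes were −0.37 ± 0.05 for RPS20 (SE; adjusted p by edgeR = 2.64e-06) and −0.27 ± 0.05 for RPS23 (SE; adjusted p by edgeR = 7.38e-05). RPS26, which contacts mRNA upstream of the start codon, fell with a log2 fold change of −0.34, and 54.8% of its 75-base stretches occur in other genes, all 17 of them pseudogenes.

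RPSA, also known as a laminin receptor precursor, averaged 611 ± 13.2 CPM in the siLINC00152 libraries and 679 ± 33.8 CPM in the siGL2 libraries (SD, n = 3 each), and fell with a log2 fold change of −0.15 (adjusted p by edgeR = 0.00606). RPS6, the substrate of S6 kinases, averaged 426 ± 1.92 CPM in the siLINC00152 libraries and 456 ± 32.5 CPM in the siGL2 libraries (SD, n = 3 each), a log2 fold change of −0.10 that did not pass (adjusted p by edgeR = 0.0805). RPS6 was called lower without siGL2 library A (−0.15), by library size alone (−0.17) and by upper-quartile scaling (−0.12). It stood at −0.05 without siGL2 library C and at −0.03 with the gene length correction, not called in either. The 3 genes with the most positive values in the small subunit were RPS24, RPS9 and RPS27L. RPS24, mutated in some patients with Diamond-Blackfan anaemia, had 550, 541 and 610 CPM in siLINC00152 libraries A, B and C, and 439, 521 and 561 CPM in siGL2 libraries A, B and C. Its groups overlapped, at a log2 fold change of 0.16 ± 0.08 (SE; adjusted p by edgeR = 0.104). RPS24 was called higher without siGL2 library C (0.24) and with no filter on low counts (0.16).

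The most positive large-subunit gene was RPL31, a protein beside the tunnel exit. It had 404, 368 and 359 CPM in siLINC00152 libraries A, B and C, and 326, 360 and 360 CPM in siGL2 libraries A, B and C. The libraries overlapped, since siLINC00152 library C was below siGL2 libraries B and C, and the log2 fold change was 0.11 ± 0.05 (SE; adjusted p by edgeR = 0.0597). RPL31 was called higher without siGL2 library C (0.14) or siLINC00152 library C (0.15) and with no filter (0.11).

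Levels were also compared per kilobase of exon. On that scale RPS12, RPL8, RPLP0, RPL19 and RPL7A were the 5 highest, at 860, 387, 302, 304 and 252 CPM per kilobase in the siLINC00152 libraries, against 949, 439, 354, 350 and 298 in the siGL2 libraries. RPL19, a protein of bridges between the subunits, had a log2 fold change of −0.20 and RPL7A, which contacts ribosomal RNA expansions, of −0.24, both called. RPS12 was called at −0.14, but its libraries overlapped. RPS12 lost its call without siGL2 library B (−0.10) or C (−0.11) and without siLINC00152 library B (−0.13) or C (−0.11), and it stood at −0.02 with the gene length correction. That correction also took RPL19 to −0.08, no longer called.

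Among the lowest on that scale were RPS9, RPS10, RPL36A and RPL17, with 0.415, 0.426, 1.24 and 0.929 CPM per kilobase in the siLINC00152 libraries, against 0.372, 0.585, 1.49 and 2.36 in the siGL2 libraries. Sequence sharing was high in 3 of these 4: between 78.9% and 86.7% of the 75-base stretches of RPS10, RPL36A and RPL17 occur in other genes, and 2.87% of those of RPS9. RPS10 had 1.12, 0.928 and 0.963 CPM in siLINC00152 libraries A, B and C, against 1.24, 1.69 and 1.21 CPM in siGL2 libraries A, B and C, and was called at a log2 fold change of −0.46 ± 0.19 (SE; adjusted p by edgeR = 0.0401). RPS10 was no longer called without siGL2 library B (−0.29) or siLINC00152 library B (−0.40) or C (−0.43), nor with DESeq2 (−0.46) or the gene length correction (−0.37). RPS9 did not pass, at 0.16 ± 0.15 (SE). Lengths come from gene models in which some introns count as exon, so the order depends on the model: by the length of the main coding transcript the 5 highest were RPS20, RPS12, RPLP0, RPS19 and RPS14, a scale chosen after seeing the data.

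Sequence shared with other genes, pseudogenes among them, touches most of the family. The share of 75-base stretches of the main coding transcript found in other genes had a median of 16.3% over the 80 genes and reached 50% or more in 17, and 67 genes shared sequence with at least 1 pseudogene. Among the 48 genes with a share of at least 10%, 29 fell (60.4%), and among the 32 below 10%, 12 fell (37.5%), with median log2 fold changes of −0.15 and −0.10. Of all tested genes, whatever their share, 32.2% fell, so the genes below 10% lay nearer to that value. The split on the main transcript was chosen after seeing the data. Spearman's rho between the share and the log2 fold change was −0.25 over the 80 genes, which share the same 6 libraries. RPL8, RPL11 and RPL39L had a share of 0%, with log2 fold changes of −0.18, −0.12 and −0.74.

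The start sites show the feature for which these mRNAs are known. A tract was searched on the transcribed strand as a C followed by at least 4 further C or T, beginning exactly at the RefSeq start (GRCh38.p14), with the start nearest to the main coding transcript used where a gene has several. Of the 80 tested genes 64 were matched to an entry, and 43 of them (67.2%) had a tract at the start, against 5.37% of 10270 tested genes and 4.01% of 27305 promoters in all. Within 5 bases of the start it was found in 50 of the 64 (78.1%), against 22.4% of tested genes and 20.9% of all promoters. Of the 43 genes with a tract at the start 19 fell (44.2%) and of the 21 without it 12 (57.1%), with a median log2 fold change of −0.13 in both sets. Of the 16 genes without an entry 10 fell (62.5%), at a median of −0.14, and 32.2% of all tested genes fell. Some of the 21, such as RPL4, hold a tract within 5 bases of the listed start, so the split depends on that start. A link between the tract and the falls was not tested. The windows below run from 10 bases before the start to 20 bases from it, with the tract in capitals; they show falling genes (RPL4, RPL13A, RPL7A), genes with positive values (RPL31, RPS24), and paralogues beside their main forms.
RPL4, chr15:66504836-66504865, minus strand: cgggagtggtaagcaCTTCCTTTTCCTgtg
RPL13A, chr19:49487598-49487627, plus strand: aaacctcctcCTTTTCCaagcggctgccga
RPL7A, chr9:133348208-133348237, plus strand: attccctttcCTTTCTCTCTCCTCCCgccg
RPL31, chr2:101002279-101002308, plus strand: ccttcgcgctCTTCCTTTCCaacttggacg
RPS24, chr10:78033853-78033882, plus strand: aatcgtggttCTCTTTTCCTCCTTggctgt
RPL22, chr1:6199576-6199605, minus strand: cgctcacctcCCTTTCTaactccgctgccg
RPL22L1, chr3:170870176-170870205, minus strand: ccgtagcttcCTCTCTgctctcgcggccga
RPS27, chr1:153990752-153990781, plus strand: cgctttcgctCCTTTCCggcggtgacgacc
RPS27L, chr15:63157458-63157487, minus strand: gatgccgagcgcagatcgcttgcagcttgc
RPL7L1, chr6:42879606-42879635, plus strand: gtgcggcgccgtagctaggagcggacgcca
In these windows RPL7A, lower in siLINC00152, and RPS24, with a positive value, both hold long tracts at the start, of 16 and 14 bases. The tract of RPL4 begins 5 bases after the listed start. RPS27 holds a tract of 7 bases and RPL22 of 7, whereas the windows of RPS27L and RPL7L1 hold no tract of this form.

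Paralogues were compared with their main forms as the log2 ratio of counts within each library, which does not depend on how libraries are scaled. The counts in these ratios were not corrected for gene length. Of 8 pairs, 6 could be used, since RPL3L and RPL10L were not detected at a testable level. In 3 of the 6 the groups did not overlap. With 3 libraries against 3, the smallest p of a two-sided exact permutation test is 0.1, so none could pass 0.05, and the smallest value adjusted over the 6 pairs by Benjamini-Hochberg was 0.2.

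RPL22 binds RNA and is known in mice to repress the mRNA of its paralogue RPL22L1, a gene outside the symbol rule. RPL22L1 had 72.9, 74.99 and 72.02 CPM in siLINC00152 libraries A, B and C, against 110, 128 and 125 CPM in siGL2 libraries A, B and C. RPL22 itself had 113, 109 and 114 CPM in siLINC00152 libraries A, B and C, and 98.5, 117 and 118 CPM in siGL2 libraries A, B and C. RPL22L1 was lower in every siLINC00152 library while RPL22 overlapped, with log2 fold changes of −0.72 ± 0.05 for RPL22L1 (SE; adjusted p by edgeR = 3.46e-10) and 0.01 ± 0.06 for RPL22 (SE; adjusted p by edgeR = 0.859). RPL22L1 made up 39.2%, 40.8% and 38.7% of the pair's counts in siLINC00152 libraries A, B and C, against 52.7%, 52.3% and 51.4% in siGL2 libraries A, B and C. The log2 ratio differed by −0.73 (exact permutation p = 0.1, adjusted 0.2).

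RPL39L, which in mammals is most abundant in the testis, is encoded at chr3:187120948-187180908 on the minus strand. It had 5.38, 4.76 and 5.12 CPM in siLINC00152 libraries A, B and C, against 8.37, 8.73 and 8.33 CPM in siGL2 libraries A, B and C. RPL39L fell beyond the spread, at a log2 fold change of −0.74 ± 0.08 (SE; adjusted p by edgeR = 1.71e-07), beside −0.33 for RPL39. It made up 22.9%, 20.7% and 26.0% of the pair's counts in siLINC00152 libraries A, B and C, against 31.2%, 27.1% and 27.2% in siGL2 libraries A, B and C. The groups did not overlap, but siLINC00152 library C and siGL2 library B were close, and the log2 ratio differed by −0.40 (exact permutation p = 0.1, adjusted 0.2).

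RPS27L, a p53 target, is the paralogue of RPS27. It had 231, 224 and 240.5 CPM in siLINC00152 libraries A, B and C, and 187, 221 and 230 CPM in siGL2 libraries A, B and C. RPS27 had 70.2, 77.4 and 76.6 CPM in siLINC00152 libraries A, B and C, and 71.3, 80.05 and 94.85 CPM in siGL2 libraries A, B and C. Neither gene passed alone, at log2 fold changes of 0.13 ± 0.06 for RPS27L (SE; adjusted p by edgeR = 0.079) and −0.14 ± 0.09 for RPS27 (SE; adjusted p by edgeR = 0.204). RPS27L was called higher without siGL2 library C (0.19) and with no filter (0.13), and RPS27 lower without siGL2 library A (−0.23) and with no filter (−0.13). Their ratio did not overlap: RPS27L made up 76.7%, 74.4% and 75.8% of the pair's counts in siLINC00152 libraries A, B and C, against 72.3%, 73.4% and 70.8% in siGL2 libraries A, B and C. The log2 ratio differed by 0.26 (exact permutation p = 0.1, adjusted 0.2), and 63.5% of the 75-base stretches of RPS27 occur in other genes. The exons of RPS27L span 9127 bases and those of RPS27 1035, and the part of gene length in this difference was not tested. With the gene length correction RPS27L was not called higher.

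**Figure D4:**
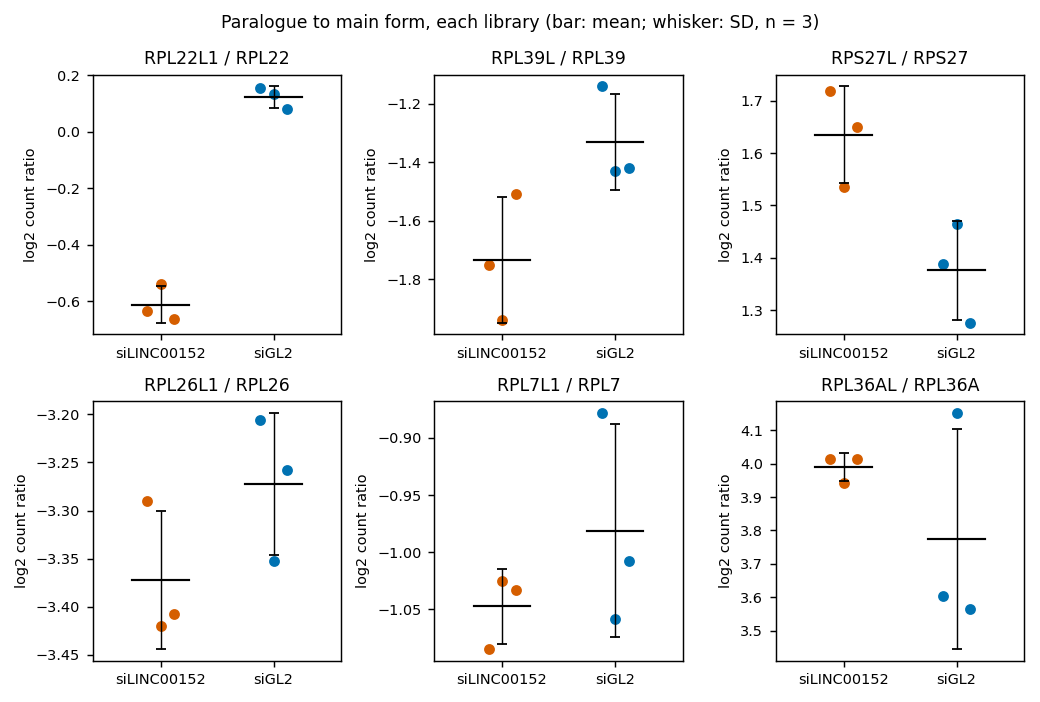
Log2 ratio of the counts of a paralogue to those of its main form in each library (points), siLINC00152 left of siGL2 in each panel, with the mean and SD over 3 libraries and a separate vertical scale per pair. The groups are apart for RPL22L1 (difference −0.73), RPL39L (−0.40) and RPS27L (0.26), and they overlap for the other 3 pairs.

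The other 3 pairs overlapped between groups. RPL7L1, a nucleolar protein of early large-subunit precursors, fell with a log2 fold change of −0.22 ± 0.05 (SE; adjusted p by edgeR = 0.000377) and RPL7 with −0.15 ± 0.05 (SE; adjusted p by edgeR = 0.0133), so their ratio differed by −0.07 (exact permutation p = 0.4, adjusted 0.4). RPL7 was not called without siGL2 library B (−0.12) or C (−0.13) or siLINC00152 library C (−0.13), nor with the gene length correction (−0.09). RPL26L1 fell with a log2 fold change of −0.24 and RPL26 stood at −0.14 (adjusted p by edgeR = 0.11), a ratio difference of −0.10 (exact permutation p = 0.2, adjusted 0.3). RPL26 was called without siGL2 library A (−0.23), without siLINC00152 library C (−0.19), with no filter on low counts (−0.14) and by library size alone (−0.21). With the gene length correction RPL26L1 stood at −0.12 and was not called. RPL36AL was at −0.03 and RPL36A at −0.26 (adjusted p by edgeR = 0.0538), a ratio difference of 0.22 (exact permutation p = 0.4, adjusted 0.4), and RPL36A was called without siGL2 library B (−0.40), by library size alone (−0.33), by upper-quartile scaling (−0.28) and with no filter (−0.26).

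Genes that work with the ribosomal proteins were read from lists. Among 17 other mRNAs known to carry a TOP tract, 8 fell (47.1%) and 1 rose, against 32.2% in either direction over all tested genes, and 32.3% lower and 43.0% higher among genes above 100 CPM, where 16 of the 17 lay. Their median log2 fold change was −0.07, and nothing particular to the list is read from it. The falls included EEF1B2, a nucleotide exchange subunit of elongation factor eEF1 (145 ± 2.48 CPM in the siLINC00152 libraries and 210 ± 14.5 CPM in the siGL2 libraries, SD, n = 3 each; log2 fold change −0.53), NPM1, a nucleolar chaperone (−0.42), RACK1, a scaffold on the small subunit (−0.31), and EIF3H, an initiation factor subunit (−0.29). The gene that rose was EIF4B, a cofactor of the initiation helicase (0.15), which was not called by library size alone (0.08). EEF1A1, TPT1 and PABPC1, abundant mRNAs of the same class, stood at 0.02, 0.04 and 0.02 and did not pass; by library size alone they stood at −0.05, −0.03 and −0.05, also not past the threshold.

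Of 8 dedicated chaperones and assembly factors of ribosomal proteins, 6 fell and 0 rose, against 32.2% of all tested genes in each direction, with a median of −0.29. BCCIP, whose yeast counterpart is a chaperone of a large-subunit protein, averaged 79.3 ± 5.13 CPM in the siLINC00152 libraries and 131 ± 8.49 CPM in the siGL2 libraries (SD, n = 3 each), a log2 fold change of −0.72 (adjusted p by edgeR = 4.57e-10). LTV1, an assembly factor of the small subunit, averaged 40.2 ± 0.978 CPM in the siLINC00152 libraries and 59.8 ± 4.37 CPM in the siGL2 libraries (SD, n = 3 each), at −0.57 (adjusted p by edgeR = 1.35e-08). HEATR3, which carries RPL5 into the nucleus, and GRWD1, a chaperone of RPL3, were lower by smaller amounts, at −0.37 and −0.33.

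Of 13 genes for mTOR, its partners, S6 kinases, initiation factor regulators and MYC, 4 rose and 4 fell (30.8% each way), close to the 32.2% over all tested genes, with a median of −0.08. RHEB, the activator of mTOR, averaged 123 ± 4.64 CPM in the siLINC00152 libraries and 213 ± 16.4 CPM in the siGL2 libraries (SD, n = 3 each), a log2 fold change of −0.79 (adjusted p by edgeR = 5.58e-11). MYC, a transcription factor that drives ribosome synthesis, averaged 70.9 ± 0.803 CPM in the siLINC00152 libraries and 49.9 ± 2.26 CPM in the siGL2 libraries (SD, n = 3 each), at 0.51 (adjusted p by edgeR = 1.26e-08). EIF4EBP2, a repressor of cap-dependent translation, and MTOR itself were higher, at 0.44 and 0.39. LARP1, the TOP mRNA binding protein, stood at −0.09 (adjusted p by edgeR = 0.121) and was called lower without siGL2 library C (−0.13), by library size alone (−0.15) and with the gene length correction (−0.15).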

How the data were processed

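PolyA RNA was made into directional libraries and read as pairs of 75 bases, per the labels' protocols. The authors deposited, for each library, raw counts by gene symbol without normalization. The submitters' processing notes name hg38 as the build, with bcl2fastq, HISAT, HTSeq and DESeq as tools. Annotation, strand setting and the handling of multiply matching reads were not given in these sources.

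From these counts, genes passing filterByExpr (at least 10 counts, 15 in total) were scaled by TMM and tested with edgeR 4.0.16 (limma 3.58.1, R 4.3.3) in its robust quasi-likelihood form over all 6 libraries, two-sided, with Benjamini-Hochberg adjustment over all tested genes. DESeq2 1.42.0 was an alternative. Paralogue ratios used an offset of 0.5 counts and exact permutation tests. Sequence sharing was computed on GENCODE 29 transcripts, either strand, with Python 3.11.15; 24780 of 27192 symbols were matched. Text names the 10 falls with the smallest p, paralogues with their main forms, the 5 highest and 5 lowest genes per length (a few genes that this rule and the lists hold are not reported here), the leading genes of each list, and others chosen after their values were seen. The members and lists were chosen with earlier results of these data known. The scripts were tested on simulated data. A count of 0 allows up to 3 counts, or 0.0649 to 0.0715 CPM, for counting error only.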

Additional observations from a re-analysis of the deposited data

How the results depend on the processing

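Of the 41 genes that fell, 29 also fell whichever library was left out, 27 in every one of 15 settings tried, and none of the 41 changed sign in any of them. No such count over all tested genes is given here, so this stability is not read as particular to the family. The number of genes that fell was 30 to 61 when 1 library was left out, and the number that rose 0 to 3. It was 41 with DESeq2-style scaling (51.2%, against 32.1% of all tested genes in that fit), 59 by library size alone (73.8%, against 38.3%; all tested genes then had a median of −0.07), 47 by upper-quartile scaling (58.8%, against 33.9%), 47 with no filter on low counts (58.8%, against 22.7%) and 40 with DESeq2's own test (40 of 80, against 29.7%). Genes that rose numbered 3 with no filter, 2 under the replicate block, 3 with the gene length correction and 3 with both together. Of all tested genes 22.8%, 32.5%, 32.6% and 33.6% rose in these fits, in the same order. With the replicate block 41 genes fell (51.2%, against 32.6% of all tested genes). The 2 that rose under the block were RPS24 and RPS27L; RPS12 lost its call there, at −0.14, FAU did so at −0.11, and RPL26 gained it, at −0.14. Restricted to genes with under 10% of their 75-base stretches in other genes, 26 of 58 fell (44.8%). Restricted on the main transcript alone, a choice made after seeing the data, 12 of 32 fell (37.5%). Of all tested genes in the same fit, 32.2% fell. Both restrictions test fewer genes; the cause of the other differences was not tested. The labels do not say whether the letters A, B and C pair the samples. Deviations of same-lettered libraries correlated at 0.13, −0.04 and 0.13, and those of differently lettered ones at −0.18 to 0.07. With 3 libraries in each group these values cannot settle whether the samples were paired. Of genes chosen by the naming rule, directions turned for 2 that had not passed. Of 21 others named, 9 turned in at least 1 setting (EEF1A1, FAU, PABPC1, RPL27, RPL35, RPLP2, RPS14, RPS25 and TPT1). RPL22 stood at −0.054 by library size alone, −0.0050 by upper-quartile scaling and −0.065 to 0.057 when 1 library was left out. RPL36AL stood at 0.093 with the length correction, 0.095 with the replicate block added and −0.090 to 0.010 when 1 library was left out. The 6 paralogue ratios kept their direction in every alternative run. Genes under 10 CPM, 7 of the 80, are limited by depth.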
